A study of Mus musculus with 2 samples.

Results

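H2-M2 and H2-Q7 are mouse genes on chromosome 17 that encode heavy chains of class I proteins of the major histocompatibility complex (MHC). They were followed here as all spots of the probes A_51_P191463 for H2-M2 and A_51_P262079 for H2-Q7, which are 2 of the 50 gene probes and 2 of all 14450 RNA probes of the array. Each probe was printed as 10 spots, and spots that the scanner software marked as outliers were left out. That left 10 H2-M2 spots and 8 H2-Q7 spots on the OGD/R array, against 9 and 8 on the control array. The cells were BV-2, an immortalised mouse microglial line. The OGD/R group had oxygen and glucose deprivation followed by reoxygenation in regular medium, a way to mimic stroke in a dish. Its deprivation phase was 2 h at 37 °C without glucose or serum, under 5% CO2 and 95% N2, and the sources used here do not give the time of reoxygenation. The control group had no deprivation. In both groups the RNA was split by immunoprecipitation into a modified fraction (IP), labelled with Cy5, and the unmodified remainder in the supernatant (Sup), labelled with Cy3, and both were read on the same array. The sources used here do not say which modification the antibody bound. There was 1 array per group, from a single cell line, so the differences below have no replicate check and no test between conditions was made.

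A class I heavy chain pairs with beta-2 microglobulin and holds a short peptide at the cell surface, where CD8+ T cells and natural killer cells read it. H2-Q7 is a nonclassical member of the family that encodes the Qa-2 antigen, which is held in the membrane by a lipid anchor, and H2-M2 is a nonclassical member from the distal M region. Resting microglia are known for low class I levels, which interferon and injury raise. The family is made of near copies, and RefSeq lists Qa-2 among the older names of H2-Q7, H2-Q8 and H2-Q9 alike. The files used here hold no probe sequences, so whether either probe also binds related class I transcripts was not tested, and each value belongs to the probe rather than with certainty to 1 gene.

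The promoters of both genes are shown because the probes differed in the same direction between the arrays. The RefSeq table for GRCm38.p6 had a window for both members, and the 250 bases before each start are printed 5′ to 3′ on the gene's strand, chr17:37483555-37483804 (minus) for H2-M2 and chr17:35438905-35439154 (plus) for H2-Q7. Capitals mark matches to any of 5 motifs searched on both strands, of which none overlapped another in these windows.
H2-M2: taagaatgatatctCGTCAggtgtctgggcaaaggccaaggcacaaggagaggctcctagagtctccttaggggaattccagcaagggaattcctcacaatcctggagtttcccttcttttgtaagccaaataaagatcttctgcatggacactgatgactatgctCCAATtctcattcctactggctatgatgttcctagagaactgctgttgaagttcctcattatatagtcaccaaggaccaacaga
H2-Q7: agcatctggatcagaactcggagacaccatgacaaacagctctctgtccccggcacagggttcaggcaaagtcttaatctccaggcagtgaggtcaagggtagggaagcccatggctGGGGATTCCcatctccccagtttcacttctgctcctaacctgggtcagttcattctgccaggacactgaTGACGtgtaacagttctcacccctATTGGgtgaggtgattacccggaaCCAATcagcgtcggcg
The H2-Q7 window holds 1 match to GGGGATTCC, the greater part of the NF-kappaB site known from class I promoters, which 0.213% of 32851 RefSeq windows of this length contain. The H2-M2 window has no match to this exact string, and other forms of the site were not searched. It does hold ggggaattcc, which differs from GGGGATTCC by 1 added base. CCAAT occurs 2 times in H2-Q7 and 1 time in H2-M2, against 33.8% of all windows with at least 1, and TGACG occurs 1 time in each, against 17.8% of all windows. GAAANNGAA, most of the core of the interferon-stimulated response element, has no exact match in either window and is in 7.13% of all windows. Other forms of this element were not searched, so its absence cannot be concluded. The H2-Q7 window does hold tttcacttc, and that of H2-M2 holds tttcccttc. Read on the other strand, each is GAAANNGAA with the parts on either side of NN in swapped order. TATAAA is in neither window, and in 12.4% of all windows. In global alignments the H2-Q7 window shared 82% of its bases with that of H2-Q6 and 63.6% with that of H2-M2. By this identity the H2-M2 window was in place 7 among 17 windows of other class I genes. The median over 32525 windows was 58.4% for H2-Q7, and 1% of them exceeded 62.8%. A match to a motif is a description of the sequence and not evidence of binding, and the arrays measured RNA and not promoter activity.

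The clearest difference between the arrays was in the supernatant, where both probes had less signal in OGD/R. For H2-M2 the processed Sup signal, which is background-subtracted, detrended and dye-normalized fluorescence, had a lowest, median and highest value over spots of 13415, 13886 and 14279 in OGD/R, against 53190, 54675 and 56273 in control. For H2-Q7 the corresponding Sup signals were 35594, 36324 and 38049 in OGD/R, against 114555, 119912 and 122943 in control. No spot of either probe on the OGD/R array came near the lowest control spot. The spots were far from the background, with median pixel signals of 632 to 697 for H2-M2 Sup on the OGD/R array over local backgrounds of 11 to 13.

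After scaling each array by its 75th percentile, the H2-M2 Sup difference was -1.92 on the log2 scale (OGD/R minus control, SD over spots 0.04), a 3.78-fold lower signal. The H2-Q7 Sup difference was -1.63 (SD over spots 0.05), a 3.10-fold lower signal. These SDs hold the scatter of spots within each array and no error between arrays or cultures. Both probes thus passed 2-fold, as did 38.2% (13) of the 34 gene probes whose IP and Sup signals were well above background on each array. Among the 7470 RNAs of any kind that passed in IP or Sup on each array, 2.21% did so (165). A lower Sup signal without overlap of spots, which both probes showed, was found in 58.8% of the 34 gene probes, so the lack of overlap is common among them. The Sup differences of both probes were beyond 2-fold in all 12 alternative settings, from -1.99 to -1.42 for H2-M2 and from -1.70 to -1.14 for H2-Q7. The setting that kept only spots well above background in both channels used the same spots, so it could not differ in any quantity. Sup is the unmodified fraction alone, so its difference does not by itself give a difference in the whole RNA of either gene. In bulk RNA, fewer expressing cells and less RNA per cell cannot be told apart.

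**Figure D1:**
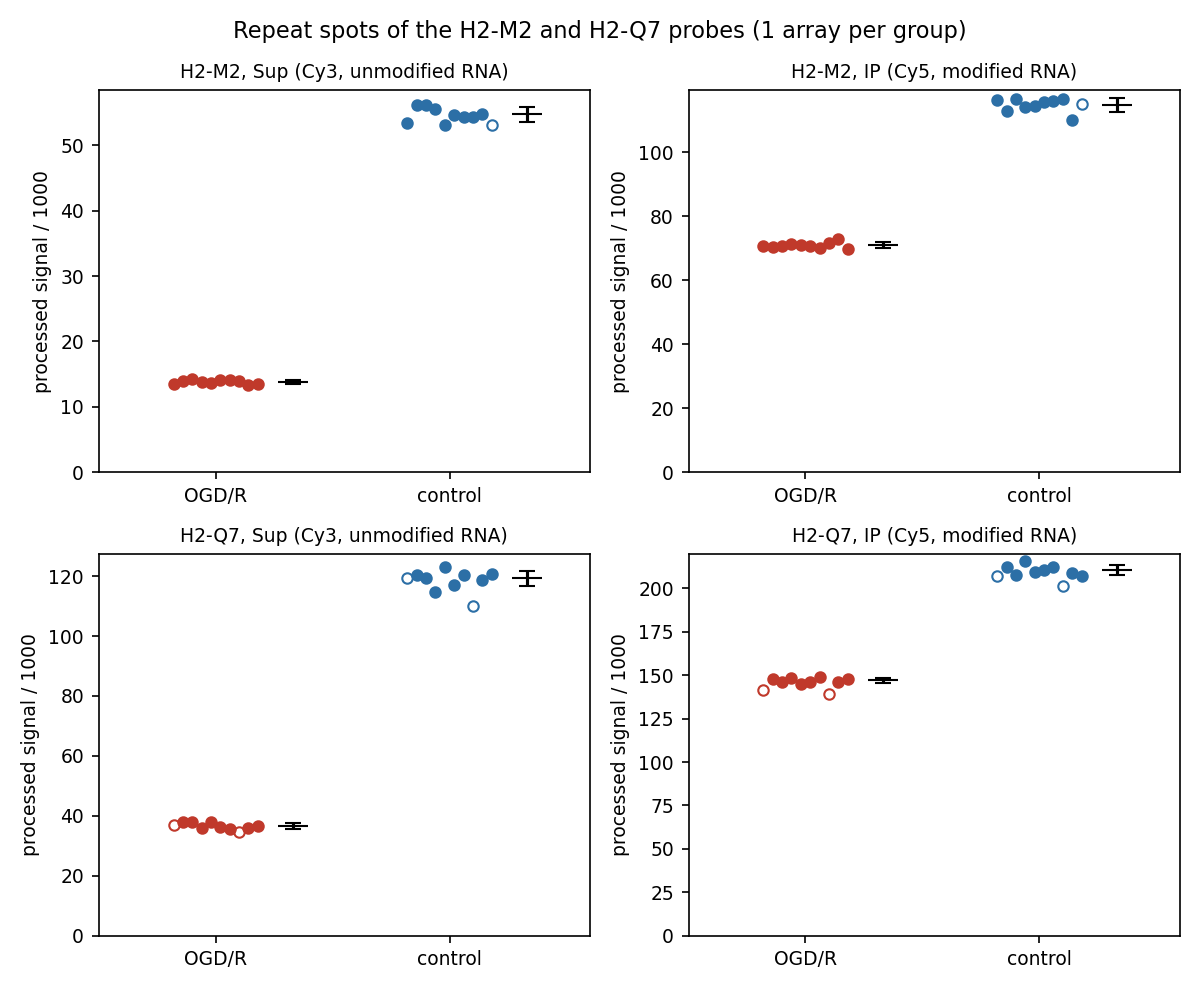
Processed signal (linear axis from 0) of each repeat spot of the H2-M2 and H2-Q7 probes in Sup and IP on the OGD/R and control arrays. Filled points are spots used, open points are spots marked as outliers and left out, and bars are the mean ± SD over used spots. Every OGD/R spot lies below every control spot in both channels, with the wider gap in Sup.

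The IP channel showed a smaller difference in the same direction. H2-M2 IP signals had a lowest, median and highest value of 69875, 70712 and 72932 in OGD/R, against 110234, 115624 and 116778 in control. H2-Q7 IP signals were 144773, 147036 and 149228 in OGD/R, against 207242, 209867 and 215960 in control. The groups again did not overlap, which 35.3% of the 34 gene probes also showed in this direction. The scaled IP difference was -0.55 for H2-M2 (SD over spots 0.03), 1.47-fold lower, and -0.37 for H2-Q7 (SD over spots 0.02), 1.30-fold lower. Neither reached 2-fold, a size that 5.88% of the 34 gene probes (2) and 3.82% of the 7470 RNAs reached downward. H2-M2 passed it in 1 of 12 alternatives, at -1.06 with normexp background correction followed by loess. Paired by position on the array, IP was lower in OGD/R at 9 of 9 positions for H2-M2 and 8 of 8 for H2-Q7, and so was Sup. These counts follow from the lack of overlap and add nothing to it.

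Since the IP differences were smaller than the Sup differences, the balance of the channels differed as well. The IP share of the summed processed signal, before any centring, was 83.7% ± 0.379 in OGD/R and 67.7% ± 0.662 in control for H2-M2 (SD over 10 and 9 spots). For H2-Q7 it was 80.0% ± 0.540 in OGD/R and 63.8% ± 0.727 in control (SD over 8 spots each). The shares thus differed by 16.0 percentage points for H2-M2 and 16.2 for H2-Q7. With normexp and loess these differences were 4.17 and 2.14 points. IP and Sup carried different dyes, so neither the share nor the total is a measured amount of modified or whole RNA. The total of IP and Sup, scaled like the channels, was 1.88-fold lower for H2-M2 in OGD/R, at -0.91 (SD over spots 0.02), and 1.69-fold lower for H2-Q7, at -0.76 (SD over spots 0.02). The OGD/R and control spots did not overlap in total either. A lower total without overlap of spots was found in 58.8% of the 34 gene probes. Neither total reached 2-fold in the main setting, which 5.88% of the 34 gene probes and 0.843% of the 7470 RNAs did downward, but that of H2-M2 did so in 5 of 12 alternatives, at up to -1.15.

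As a log2 IP/Sup ratio centred on the array median, the values over spots were 2.61 to 2.75 in OGD/R and 1.28 to 1.40 in control for H2-M2. They were 2.24 to 2.37 in OGD/R and 1.05 to 1.20 in control for H2-Q7. No spots overlapped, and a higher ratio without overlap of spots was found in 73.5% of the 34 gene probes. The difference was 1.31 for H2-M2 (SD over spots 0.06), which is 2.48-fold, and 1.20 for H2-Q7 (SD over spots 0.07), which is 2.30-fold. The scanner software also gives an error for the ratio of each spot. Averaged over spots and combined over the arrays, it came to 0.37 for H2-M2 and 0.35 for H2-Q7. These are errors for a difference between single spots and not between means over spots. Ratios at least 2-fold higher were found in 26.5% of the 34 gene probes (9 probes) and 4.27% of the 7470 RNAs (319), and ratios at least 2-fold lower in 2 gene probes. With the spike-in centre, 1 of the 34 gene probes was at least 2-fold higher in ratio and 3 were lower. With normexp 2 were higher and 0 lower, and with loess after normexp 0 passed in either direction. The ratio differences of H2-M2 and H2-Q7 themselves differed by 0.11, where the SD for single spots was 0.09. As means over spots, these ratio differences had smaller SEs, 0.019 for H2-M2 and 0.024 for H2-Q7. Such SEs rest on repeat spots and hold no error between arrays or cultures, so whether the probes differ was not tested. The Sup differences of the probes differed by -0.29, where the SD for single spots was 0.07.

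The size of the ratio difference depended on the scanner's step from background-subtracted to processed signal. That step is called dye normalization here, although any spatial detrending within it was not separated from it. In background-subtracted signals before that step, the mean log2 IP/Sup of H2-M2 was 1.503 in OGD/R and 0.82 in control, a difference of 0.68. For H2-Q7 it was 1.59 in OGD/R and 1.1015 in control, a difference of 0.49. The step to processed signals added 0.61 to the first difference and 0.69 to the second, and centring added 0.02 to each. Before dye normalization and after centring, the differences were 0.63 for H2-M2 and 0.44 for H2-Q7, both under 2-fold, while the Sup differences there were still -1.66 and -1.33.

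**Figure D2:**
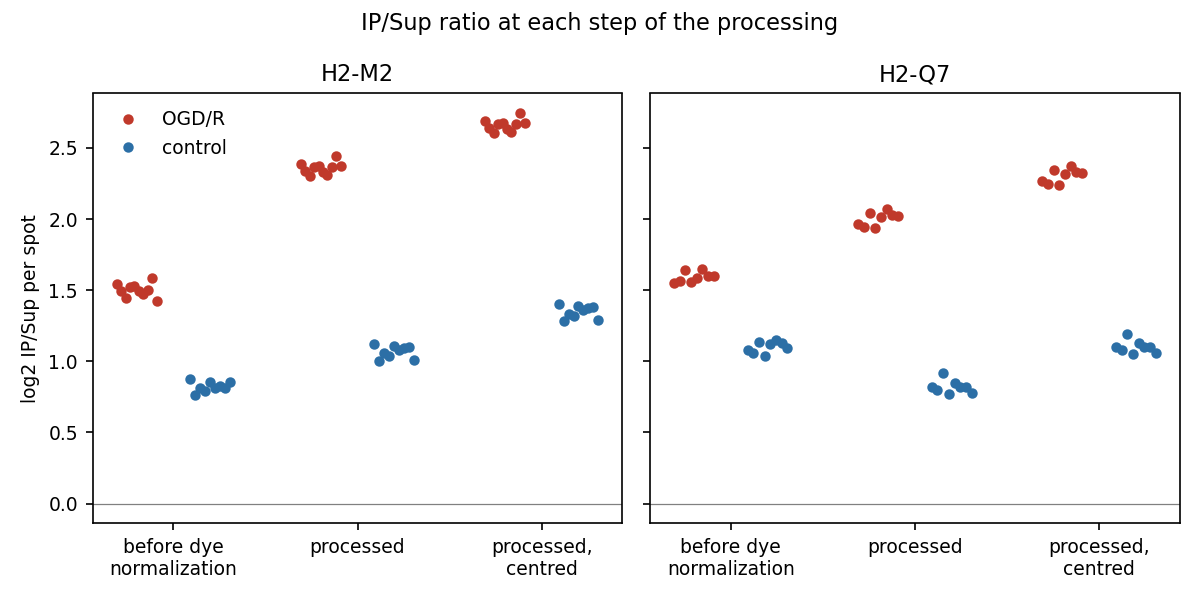
log2 IP/Sup of each used spot of H2-M2 and H2-Q7 before the scanner's dye normalization, after it, and after centring on the array median, for OGD/R and control. The gap between the arrays is 0.68 and 0.49 before dye normalization and 1.29 and 1.18 after it.

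The software multiplied each spot's background-subtracted signal by a factor that was nearly constant for dim spots and changed for bright ones. In Sup the median factor over RNA spots well above background was 22.7 in OGD/R and 23.0 in control. For H2-M2 the mean Sup factor was 21.5 in OGD/R, where its spots were dimmer, and 27.4 in control. For H2-Q7 the mean Sup factor was 24.8 in OGD/R and 32.5 in control. In IP the direction was the opposite, with mean factors of 38.9 in OGD/R and 32.5 in control for H2-M2, and 32.9 in OGD/R and 26.7 in control for H2-Q7. In IP the medians over RNA spots were 36.3 in OGD/R and 38.5 in control. Over all RNA spots the Sup factor was higher and the IP factor lower for the brightest spots than for dim ones. The H2-M2 factors on the OGD/R array were near the medians over RNA spots. On the control array the H2-M2 factors lay closer together, and those of H2-Q7 had crossed, with Sup above IP.

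**Figure D3:**
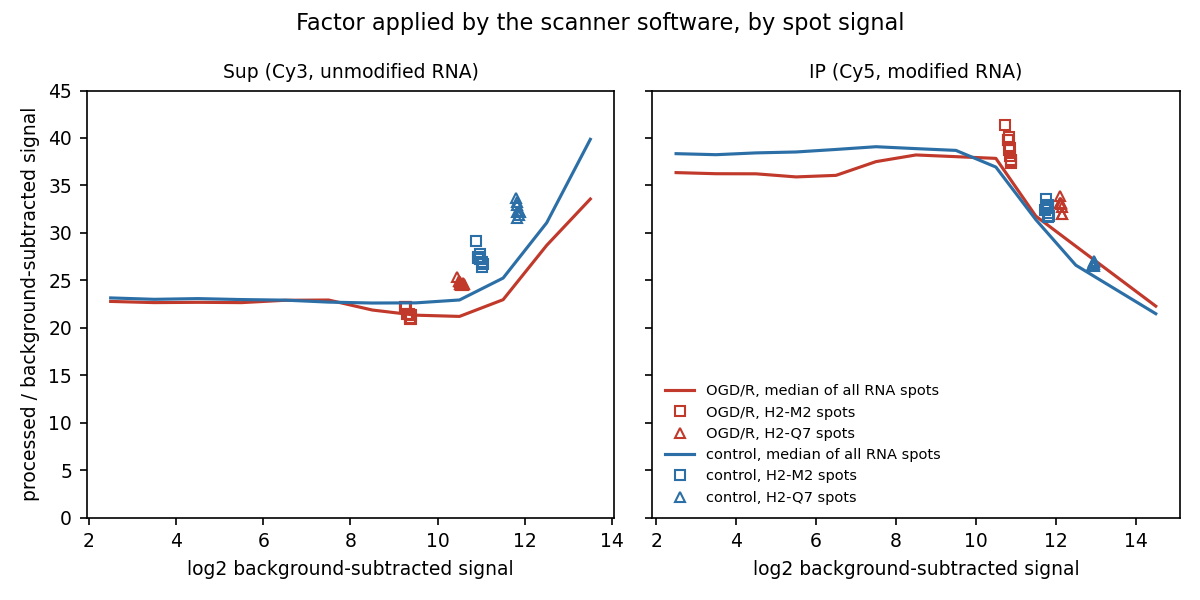
Ratio of processed to background-subtracted signal against log2 background-subtracted signal, for Sup and IP. Lines are medians over RNA spots well above background in signal bins with at least 20 spots, and squares and triangles are the used spots of H2-M2 and H2-Q7 on the OGD/R and control arrays. In Sup the factor of both probes is higher on the control array, and in IP it is higher on the OGD/R array.

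Other ways of correcting the arrays also brought the ratio differences under 2-fold. With normexp background correction they were 0.58 for H2-M2 and 0.46 for H2-Q7, and when loess followed normexp they were 0.33 and 0.19. With the median of the other gene probes as centre they were 0.45 and 0.34. Spike-in probes report control RNA added to the samples, and the sources used here do not say whether both arrays received equal amounts. They had a median Sup difference of -0.31 over 43 probes and a median ratio difference of 0.20 over 36 probes in the main setting. Subtracting these gave ratio differences of 1.11 for H2-M2 and 1.00 for H2-Q7, where the second falls just short of 2-fold before rounding, and Sup differences of -1.60 and -1.32. Centring each array on its spike-in median gave ratio differences of 0.86 and 0.75. The ratio of both probes was higher in OGD/R in all 13 alternatives, by 0.33 to 1.31 for H2-M2 and by 0.19 to 1.22 for H2-Q7. These include the setting that left the spots unchanged.

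**Figure D4:**
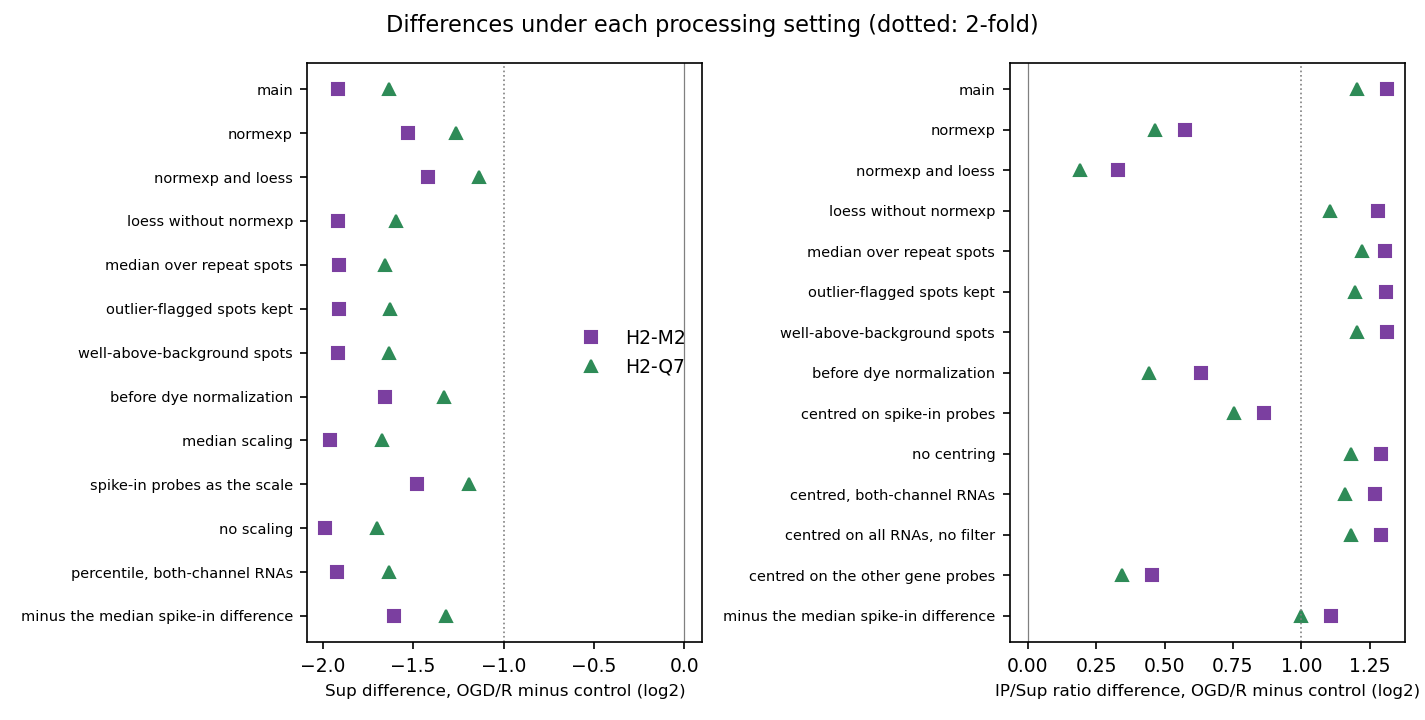
Sup difference (left) and IP/Sup ratio difference (right) of H2-M2 and H2-Q7, OGD/R minus control on the log2 scale, in the main setting and each alternative. All Sup differences lie beyond the dotted 2-fold line, while the ratio differences fall short of it with normexp, before dye normalization and with the spike-in or gene-probe centre, except 1.11 for H2-M2 after subtraction of the median spike-in difference.

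Among the 34 gene probes, H2-M2 was in place 2 from the lowest by Sup difference and H2-Q7 in place 4, and by IP and by total they were in places 4 and 5. By ratio they were in places 7 and 8 from the highest. The median over the 34 was -0.54 in Sup, -0.03 in IP and 0.65 in ratio, with 24 of 34 lower in Sup and 29 of 34 higher in ratio. By the distance between pairs of IP and Sup differences over the 33 gene probes with symbols, H2-Q7 was the nearest to H2-M2 and H2-M2 the nearest to H2-Q7, at 0.34. Apoe, the gene of the lipid carrier apolipoprotein E, came next for both, at 0.55 from H2-M2 and 0.41 from H2-Q7, and differed by -1.82 in Sup and -0.01 in IP. The olfactory receptor gene Olfr166 followed for both, at 0.74 and 0.41, with -1.25 in Sup and -0.23 in IP. These distances rest on 2 arrays and 2 channels and describe the pattern alone. In Sup, 1 of the 34 was at least 2-fold higher and 13 lower in the main setting, against 4 higher and 4 lower with spike-in scaling. In normexp, normexp with loess, and spike-in scaling, 4, 3 and 4 of the 34 gene probes were at least 2-fold lower in Sup, and H2-M2 and H2-Q7 were among them each time.

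**Figure D5:**
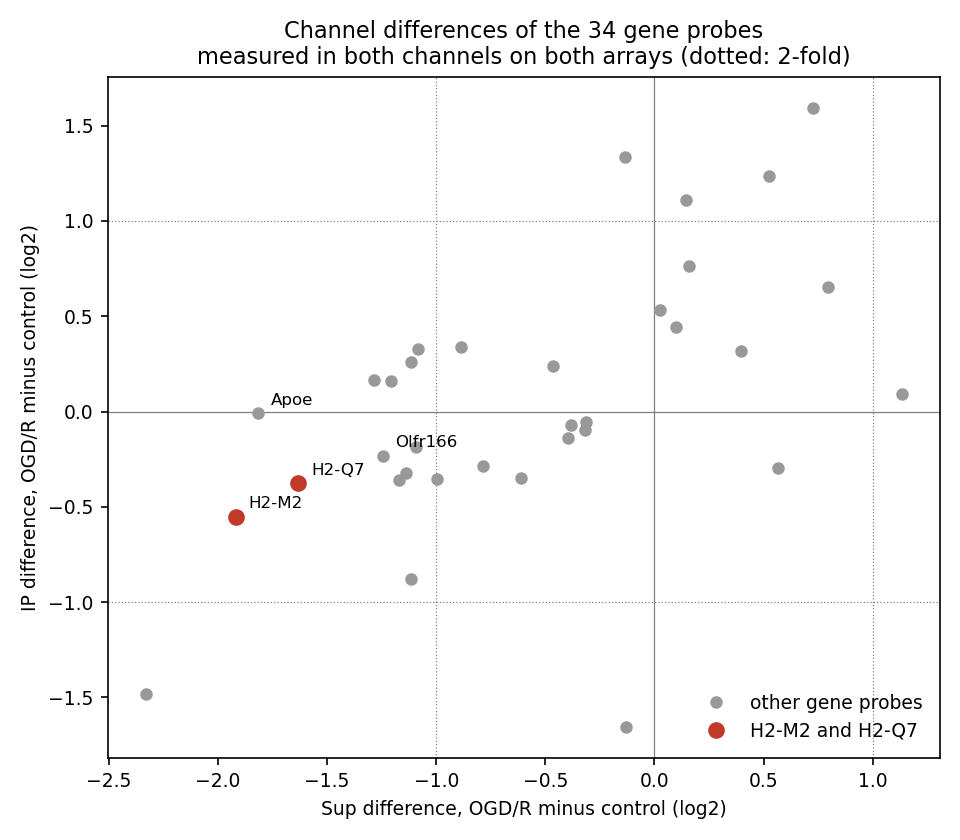
IP difference against Sup difference (OGD/R minus control, log2, scaled by the 75th percentile) of the 34 gene probes that were well above background throughout. H2-M2 and H2-Q7 lie next to each other at the left, with Sup differences of -1.92 and -1.63 and IP differences of -0.55 and -0.37, and dotted lines mark 2-fold.

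The rest of the pathway could not be followed, because the array carries few gene probes. Of 15 genes for class I assembly and peptide supply, such as beta-2 microglobulin and the TAP transporter, 0 had a probe, as did 0 of 5 MHC class II genes and 0 of 14 interferon response genes. H2-M2 and H2-Q7 were the 2 probes among the symbols that begin with H2-. Of 13 microglial markers only Apoe had a probe, which passed the background criterion throughout, so the cell type could not be checked beyond it. Of the markers of other brain cells only the oligodendrocyte gene Mbp had a probe, which was not well above background in Sup and was so in IP on both arrays.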

How the data were processed

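The data were 2 two-colour arrays of BV-2 cells, 1 per group. The deposited scanner files give intensity per spot and channel from Agilent Feature Extraction 11.0.1.1. Per the file headers, the processed signal had background subtraction, spatial detrending and dye normalization by a linear factor and lowess, and the arrays were not brought to a common scale. The authors' files also give a log10 ratio per spot with an error, which was converted to log2. The authors' table of normalized values lists small-RNA probes and was not used here. Each array had 15742 spots, of which 83 in OGD/R and 57 in control were marked as outliers and left out, and 0 were saturated.

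Values are means of log2 signals over repeat spots. A probe was taken as well above background where 50% or more of the spots kept were marked so. The log2 ratio of IP to Sup was centred on the array median over the 7470 RNAs that passed in at least 1 channel on both arrays. Signals were scaled by the 75th percentile, for Sup over all RNA probes, for IP over those detected in IP on both arrays and for the sum over the 7470. With 1 array per group, differences are described by size, at 2-fold, with no p-value, and the number of arrays limits the precision. Named genes were the members, the 3 gene probes nearest to each and list members on the array. The members and lists were chosen with earlier results of these data known. Symbols came from RefSeq by accession, for 46 of 50 gene probes.

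Alternatives were normexp (limma 3.58.1, offset 50, on median signals, because mean spot signals were not used here), loess, other centres and scales, other averages of spots and outlier spots kept. Signals before dye normalization and the median spike-in difference were added after seeing the data. Normexp also leaves out the scanner's detrending and dye normalization. Promoter windows were aligned globally with Biopython 1.88 (match 1, mismatch -1, gap opening -2, extension -0.5). The computation was tested on simulated data.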

Additional observations from a re-analysis of the deposited data

How the results depend on the processing

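No paired analysis was possible because each group is 1 array. No direction of a difference of H2-M2 or H2-Q7 was reversed in any alternative. Differences (OGD/R minus control) that moved by more than the spot scatter follow as ratio, Sup, IP and total on the log2 scale, then the IP share in percentage points. With normexp they were 0.58, -1.53, -0.96, -1.12 and 8.80 for H2-M2 and 0.46, -1.27, -0.81, -0.92 and 6.74 for H2-Q7. With normexp and loess they were 0.33, -1.42, -1.06, -1.15 and 4.17 for H2-M2 and 0.19, -1.14, -0.92, -0.97 and 2.14 for H2-Q7. Before dye normalization they were 0.63, -1.66, -0.94, -1.11 and 10.1 for H2-M2 and 0.44, -1.33, -0.80, -0.90 and 6.91 for H2-Q7. Loess without normexp moved H2-Q7 in ratio to 1.104, in IP to -0.44 and in share to 15.1. Centring gave ratio differences of 0.86 for H2-M2 and 0.75 for H2-Q7 on the spike-in probes and 0.45 and 0.34 on the other gene probes. Subtracting the median spike-in difference gave 1.11, -1.60 and -0.82 for H2-M2 and 1.00, -1.32 and -0.67 for H2-Q7 in ratio, Sup and total. Median scaling gave -1.96, -0.59 and -0.94 in Sup, IP and total for H2-M2, and -0.42 and -0.79 in IP and total for H2-Q7. The spike-in scale gave -1.48, -0.51 and -1.09 for H2-M2 and -1.19, -0.34 and -0.93 for H2-Q7, and no scaling gave -1.99, -0.69 and -1.0 for H2-M2 and -1.70, -0.52 and -0.84 for H2-Q7. The percentile over RNAs measured in both channels gave IP differences of -0.60 and -0.42. Centring before the share gave 14.5 for H2-M2 and 15.0 for H2-Q7. Of the 34 gene probes, 11 differed at least 2-fold in ratio in the main setting (9 higher, 2 lower), 2 with normexp (both higher), 0 with normexp and loess, 7 before dye normalization (5 higher, 2 lower) and 4 with the spike-in centre (1 higher, 3 lower), and 22 passed 1.5-fold (19 higher, 3 lower). In Sup 14 did so in the main setting (1 higher, 13 lower), 4 with normexp and 3 with normexp and loess (all lower), and 8 with the spike-in scale (4 higher, 4 lower). The smaller ratio differences before dye normalization come, by construction, from leaving out that step with any detrending in it. For the other settings the cause was not tested. Repeat spots give the technical scatter within an array only.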
